A study of Danio rerio with 6 samples.

Results

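Iron storage, iron export and plasma metal-binding genes were examined in the livers of zebrafish (*Danio rerio*) larvae lacking Keap1, the adaptor that targets the transcription factor Nrf2 for degradation. The genes were chosen by symbol: *fth1a*, *fth1b*, *tfa*, *cp*, *hpxa*, *hp*, *mt2*, *hamp*, *slc40a1* and *tfr1b*. Of these 10 genes, 6 had a row under their Entrez gene ID among the 6637 rows of the count table, namely *fth1a*, *tfa*, *cp*, *hamp*, *slc40a1* and *tfr1b*, and all 6 passed the low-count filter. The other 4 (*fth1b*, *hpxa*, *hp* and *mt2*) were not analysed here. Livers were dissected at 7 days post fertilization (dpf) from cr*keap1a/b* larvae, which are crispants injected with CRISPR/Cas9 at the 1-cell stage and are mosaic for knockout of the Keap1 paralogs *keap1a* and *keap1b*, and from wild-type (WT) larvae. All larvae were kept at 28 °C, and the methods state that clutch siblings served as controls. Each group had 3 samples, and each sample was a pool of 15 livers, so differences between animals within a pool were not measured. Replicates are numbered as in the sample titles.

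Iron entering hepatocytes from plasma transferrin is stored in ferritin, a shell in which the heavy chain oxidises the iron. It leaves cells through ferroportin, the only known cellular iron exporter, and hepcidin, a peptide hormone made by hepatocytes, binds ferroportin and causes its degradation. In mammals the genes for ferritin chains and ferroportin are among those that Nrf2 activates, and heme and inflammation act on several of the same genes.

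Library totals over rows with a gene ID lay between 9491003 and 15030262 counts. Replicate 3 of each group, which carries the letter b in its sample description where the other pools carry the letter a, stood apart: 47.6% of genes in the cr*keap1a/b* pool and 53.2% in the WT pool had no counts, against 2.83% to 13.1% in the letter a pools. The labels do not say what the letter means, so results are also given within the letters. The targeted genes did not separate the groups. *keap1a* had 291, 307 and 0 counts in cr*keap1a/b* pools and 375, 0 and 379 counts in WT pools, and *keap1b* had 489, 309 and 0 counts against 314, 261 and 10. Counts near the 3′ end of a transcript need not fall when a gene is disrupted by small edits, so they do not check the labels. All 19 hepatocyte markers were counted in every pool. Levels are given in CPM (counts after scaling every library to one total with trimmed-mean factors). Summed hepatocyte markers were 192249, 163538 and 109465 CPM in cr*keap1a/b* pools and 237185, 247926 and 157970 CPM in WT pools. These groups overlapped, but within each letter the cr*keap1a/b* pools were lower. Summed markers of exocrine pancreas lay at 8776 to 12522 CPM in cr*keap1a/b* pools and 26453 to 41909 CPM in WT pools. Summed markers were also lower in all cr*keap1a/b* pools for intestine (689 to 891 CPM against 971 to 1918 CPM), biliary and stellate cells (757 to 1104 CPM against 1250 to 1698 CPM) and skeletal muscle (238 to 434 CPM against 531 to 2793 CPM). No single intestine, biliary and stellate or muscle marker had a limma-voom adjusted p under 0.05.

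Of the 6 measured genes, *fth1a* rose and *hamp* fell in cr*keap1a/b* livers at an adjusted p under 0.05 in limma-voom. Among all 6386 genes tested, 1.19% were called in that fit, 0.595% as higher and 0.595% as lower. *slc40a1* was far higher in every cr*keap1a/b* pool without passing that test. *tfa*, *cp* and *tfr1b* were not called, and their groups overlapped. The median log2 fold change over all tested genes was 0.36 in limma-voom, 0.058 in edgeR and 0.023 in DESeq2. It was 0.011 in limma-voom over the 1635 genes with at least 10 counts in all pools. That filtered fit and DESeq2 set their own scaling factors, so their medians near 0 do not show whether well-counted genes share a shift. Values relative to the 0.36 are given as a description. Adjusted p-values below are Benjamini-Hochberg values from limma-voom over all tested genes unless another tool is named, and errors of log2 fold changes are standard errors. In this fit 63.5 of the 67.5 degrees of freedom of an error came from the other genes. The p-values and errors therefore say little of the spread of a single gene between pools. In limma-voom without that borrowing (no moderation), the adjusted p was 0.474 for *fth1a* and 0.837 for *hamp*. In limma-voom on the 4 letter a pools alone, the error came wholly from the other genes, and 4.46% of 6456 genes were called. The adjusted p-values given below for those pools therefore do not measure the spread of a gene. The labels do not say whether the pools of a group came from separate clutches.

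**Figure D1:**
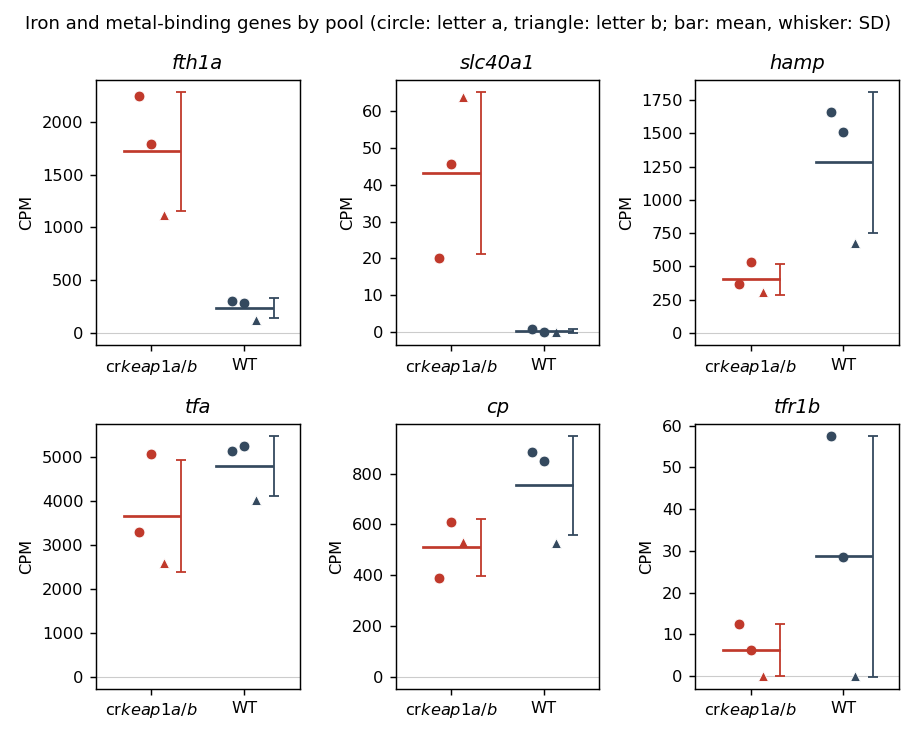
Expression of the 6 measured iron and metal-binding genes in CPM (vertical axes, one scale per gene) in cr*keap1a/b* pools (left, red) and WT pools (right, blue), 3 pools each. Circles are pools with the letter a and triangles pools with the letter b, bars are means and whiskers 1 SD. In *fth1a* and *slc40a1* every red point is above every blue one and in *hamp* below, while *tfa*, *cp* and *tfr1b* overlap.

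*fth1a* encodes a ferritin heavy chain, the subunit that oxidises iron on its way into the ferritin shell. It had 25031, 22556 and 16853 counts in cr*keap1a/b* pools and 2839, 2293 and 2124 counts in WT pools, which is 2247, 1794 and 1122 CPM against 297, 281 and 124 CPM. The lowest cr*keap1a/b* pool was thus well above the highest WT pool, and in both groups the letter b pool was the lowest. Mean expression was 1721 ± 566 CPM in cr*keap1a/b* pools and 234 ± 95.7 CPM in WT pools (SD, n = 3 each), a ratio of 7.36. The log2 fold change was 3.02 ± 0.44 (95% interval 2.14 to 3.90), with an adjusted p of 1.02e-06. It was 2.66 above the median of all tested genes. Both letters gave a difference of like size, 2.80 on the log2 CPM scale between the letter a pools and 3.18 between the single letter b pools. *fth1a* was also called by edgeR's quasi-likelihood test (adjusted p = 0.00268), which called 0.345% of genes, and by DESeq2 (adjusted p = 8.78e-09), which called 2.42%. It was called too in the 4 letter a pools alone (limma-voom adjusted p = 9.94e-23), where 4.46% of genes were called. The error of that letter a fit came wholly from the other genes, so its p does not measure the spread of *fth1a*. *fth1a* was not called when cr*keap1a/b* replicate 2, WT replicate 1 or WT replicate 2 was left out. Those fits called only 1, 1 and 4 of all tested genes. Over all 6 fits that leave out a pool, its log2 fold change stayed between 2.49 and 3.30. As a share of all counts with a gene ID, *fth1a* took 0.209%, 0.180% and 0.151% in cr*keap1a/b* pools and 0.0240%, 0.0242% and 0.0141% in WT pools.

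Other ferritin genes and genes that load iron into ferritin or release it were examined from a list of 15, of which 9 were tested. None was called by limma-voom, edgeR or DESeq2, and 1 had an unadjusted limma-voom p under 0.05, against 486 of all 6386 tested genes. Of the 9, 8 had a positive log2 fold change, against 3643 of all 6386 tested genes. The list median was 2.57, against 0.36 over all tested genes. Of these 9 genes, 2 had no counts in cr*keap1a/b* replicate 3 and 2 in WT replicate 3, and such zeros enter the fitted values. *fthl31*, a ferritin heavy chain-like gene, had 1343, 1873 and 4368 counts in cr*keap1a/b* pools and 281, 257 and 12 counts in WT pools. These groups did not overlap. Its log2 fold change of 5.11 ± 2.07 had an adjusted p of 0.372 over 6 pools, and in the letter a pools alone it was 2.17 with an adjusted p of 0.00356. *fthl27*, a related gene chosen after its values were seen, had 8235, 10392 and 14380 counts against 6894, 4164 and 10675, or 739, 827 and 957 CPM against 722, 510 and 622 CPM. The cr*keap1a/b* pools were again all higher, but by little (log2 fold change 0.46 ± 0.32, adjusted p = 0.771). *fthl28*, also chosen after its values were seen, overlapped, with 62.5, 141 and 291 CPM in cr*keap1a/b* pools and 12.1, 4.65 and 71.4 CPM in WT pools. The counts of these paralogs are uncertain where their 3′ ends share sequence, since how reads with several matches were counted is not given in the sources used here. *pcbp2*, a chaperone that delivers iron to ferritin in mammals, had 120, 86.2 and 215 CPM in cr*keap1a/b* pools and 131, 134 and 22.0 CPM in WT pools. Its log2 fold change was 1.32 ± 0.81, but its letter a pools differed by -0.38 on the log2 CPM scale. *glrx3*, a glutaredoxin that carries iron-sulfur clusters, had 759, 464 and 937 counts against 236, 425 and 0. Its log2 fold change of 4.44 ± 2.69 includes the 0 of WT replicate 3, and its letter a difference was 0.48. Both genes overlapped between groups (adjusted p = 0.741 for each). *ncoa4*, the receptor that takes ferritin to the lysosome for breakdown, was chosen after its values were seen. It was the only gene of the list with a negative value over 6 pools. Its counts were 293, 181 and 0 against 153, 7 and 207, with no order between the groups. Between the letter a pools its difference was 2.27 on the log2 CPM scale.

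*slc40a1* encodes ferroportin, the iron exporter. It had 224, 574 and 962 counts in cr*keap1a/b* pools and 8, 0 and 0 counts in WT pools, or 20.1, 45.7 and 64.0 CPM against 0.838, 0 and 0 CPM. Transcripts were therefore present in every cr*keap1a/b* pool and close to the limit of detection in WT replicates 1 and 2. By counting error alone, the 0 of WT replicate 2 allows up to 0.367 CPM. The 0 of WT replicate 3 sets no such bound, since 53.2% of genes had no counts in that pool. Means were 43.3 ± 22.1 CPM in cr*keap1a/b* pools and 0.279 ± 0.484 CPM in WT pools (SD, n = 3 each). The log2 fold change was 8.47 ± 2.58 (95% interval 3.32 to 13.6) with an adjusted p of 0.0926, and its size depends on the 0.5 counts that voom adds to each count. Of the other tests, DESeq2 called it (adjusted p = 0.00445), while edgeR did not (adjusted p = 0.716), nor did limma-voom in the letter a pools (adjusted p = 0.364). It also passed in limma-voom when cr*keap1a/b* replicate 3, the pool with the highest level, was left out (adjusted p = 0.0452). That fit keeps WT replicate 3 as its only letter b pool, so letter and group are mixed in it. Its median log2 fold change over all genes was 1.61, with 125 genes called higher and 37 lower. Ferroportin is made by macrophages and erythrocytes as well as hepatocytes. Summed erythrocyte markers were 677 to 2371 CPM in cr*keap1a/b* pools and 546 to 666 CPM in WT pools, over 10 of 21 listed markers in the table. Their part in the result was not tested. *slc4a1a*, *cahz* and *urod* were at 0 in cr*keap1a/b* replicate 3, the pool with the most *slc40a1*, and 5 of the 10, these 3 among them, were at 0 in WT replicate 3. Macrophage and neutrophil markers overlapped, at 23.8 to 100 CPM in cr*keap1a/b* pools and 55.0 to 102 CPM in WT pools, over 6 of 29 listed markers. The 6 include *hmox1a*, which is also in the heme list below. It had 5.75, 14.7 and 1.33 CPM in cr*keap1a/b* pools and 48.5, 52.4 and 13.0 CPM in WT pools. In WT replicate 2 it made up most of the sum of 61.0 CPM. Of the 6 markers, *spi1b* and *mmp9* were at 0 in cr*keap1a/b* replicate 3. In WT pools, *spi1b* was at 0 in replicates 1 and 2, *mmp9* in replicate 3, and *marco*, *laptm5* and *havcr1* in replicates 2 and 3.

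*hamp* encodes hepcidin, the hormone that removes ferroportin from the cell surface. It had 4122, 6702 and 4601 counts in cr*keap1a/b* pools and 15841, 12336 and 11540 counts in WT pools, or 370, 533 and 306 CPM against 1659, 1510 and 673 CPM. The highest cr*keap1a/b* pool was below the lowest WT pool, which was the letter b pool. Mean expression was 403 ± 117 CPM in cr*keap1a/b* pools and 1281 ± 532 CPM in WT pools (SD, n = 3 each). The log2 fold change was -1.42 ± 0.37 (95% interval -2.16 to -0.68) with an adjusted p of 0.0280, and -1.78 relative to the median of all tested genes. Within the letters the differences were -1.83 (letter a) and -1.13 (letter b) on the log2 CPM scale. The call depended on the test. DESeq2 (adjusted p = 0.00528) and limma-voom on the letter a pools (adjusted p = 5.43e-10) also made it. They called 2.42% and 4.46% of genes, and the error of the letter a fit came wholly from the other genes. It was not made by edgeR (adjusted p = 0.119), limma with a trend (adjusted p = 0.0776) or limma-voom with RLE (relative log expression) scaling factors (adjusted p = 0.783). Nor was it made by limma-voom when rows without a gene ID were kept (adjusted p = 0.138) or the description letter was a covariate (adjusted p = 0.0846). When any of cr*keap1a/b* replicates 1 and 2 and WT replicates 1 and 2 was left out, *hamp* was no longer called, with log2 fold changes of -1.58 to -1.13. Those fits called 31, 1, 1 and 4 of all tested genes, in that order. In every alternative that gave a value, 23 in all, the log2 fold change was negative, between -2.03 and -1.10. Per 1000 counts of the 19 hepatocyte markers, *hamp* had 1.93, 3.26 and 2.80 counts in cr*keap1a/b* pools and 6.99, 6.09 and 4.26 counts in WT pools, so the groups stayed apart on that scale too. Of those markers 2 were themselves called lower in cr*keap1a/b* pools and none higher, so their sum is not a neutral reference. With libraries scaled to those markers, which was tried only after looking at the data, the log2 fold change was -1.10 with a limma-voom adjusted p of 0.476.

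Groups did not overlap for 3 of the 6 measured genes, 2 of them higher and 1 lower in cr*keap1a/b* pools. Among all tested genes, groups did not overlap for 13.4%, with 8.39% higher and 5% lower in cr*keap1a/b* pools. *fth1a*, *slc40a1* and *hamp* were the genes concerned.

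**Figure D2:**
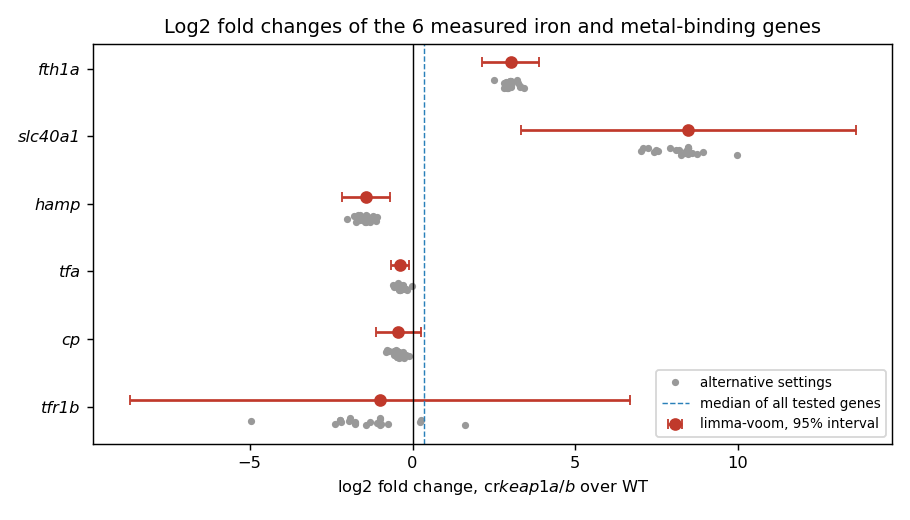
Log2 fold changes (horizontal axis, cr*keap1a/b* over WT) of the 6 measured genes from limma-voom, as red points with 95% intervals, over 3 pools per group. Grey points are the values under the alternative settings, and the dashed line is the median of all tested genes at 0.36. The intervals of *fth1a* (2.14 to 3.90) and *slc40a1* (3.32 to 13.6) lie above that line and those of *hamp* (-2.16 to -0.68) and *tfa* (-0.67 to -0.11) below 0, while the grey points of *tfr1b* fall on both sides of 0.

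Hepcidin is switched on by bone morphogenetic protein (BMP) signalling through Smad proteins, and the genes of that route were examined from a list of 29. Of these, 11 were tested and none was called by limma-voom, edgeR or DESeq2. An unadjusted limma-voom p under 0.05 was found for 2 of the 11, against 486 of all 6386 tested genes. Over the list, the log2 fold change was positive for 5 and negative for 6, and its median was -0.52. *id1*, a BMP target gene often measured beside hepcidin, had 685, 947 and 1120 counts in cr*keap1a/b* pools and 2690, 2446 and 0 counts in WT pools. In letter a pools it was lower in cr*keap1a/b* (log2 fold change -2.06, adjusted p = 9.30e-06 in limma-voom on those 4 pools). With the 0 of WT replicate 3 included, the fitted value over 6 pools was positive, 4.78 ± 1.92 (adjusted p = 0.360), although mean expression was 70.5 CPM in cr*keap1a/b* pools and 194 CPM in WT pools. *id3*, a second BMP target, had 89.0, 150 and 345 CPM in cr*keap1a/b* pools and 401, 338 and 317 CPM in WT pools. It was lower in the letter a pools (log2 fold change -1.64, adjusted p = 9.63e-05) and near equal between the letter b pools, with a value of -0.97 ± 0.53 over all 6 (adjusted p = 0.699). *fkbp1aa* encodes an orthologue of FKBP12, which binds BMP type I receptors and holds hepcidin down in mammals. It had 226, 304 and 249 CPM in cr*keap1a/b* pools and 93.7, 114 and 73.7 CPM in WT pools, with no overlap (log2 fold change 1.57 ± 0.66, adjusted p = 0.425, and 0.00757 in the letter a pools). The letter a fit called 4.46% of genes with an error wholly from other genes, so its p-values do not measure the spread of these genes.

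*tfa* encodes transferrin, the iron carrier of plasma. It had 3298, 5078 and 2597 CPM in cr*keap1a/b* pools and 5151, 5264 and 4027 CPM in WT pools. The cr*keap1a/b* replicate 2 pool lay within the WT range and the other cr*keap1a/b* pools below it. Mean expression was 3658 ± 1279 CPM in cr*keap1a/b* pools and 4814 ± 684 CPM in WT pools (SD, n = 3 each), and the log2 fold change of -0.39 ± 0.14 had an adjusted p of 0.231.

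*cp* encodes ceruloplasmin, the plasma copper oxidase that oxidises iron for loading onto transferrin. It had 388, 610 and 531 CPM in cr*keap1a/b* pools and 884, 850 and 529 CPM in WT pools. The letter a pools of cr*keap1a/b* were below those of WT (difference -0.83 on the log2 CPM scale), while the letter b pools were equal within 0.0069. Over all pools the log2 fold change was -0.43 ± 0.35 (adjusted p = 0.829), with a 95% interval from -1.13 to 0.27.

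*tfr1b* encodes a paralog of transferrin receptor 1, which takes up iron-loaded transferrin. It had 139, 80 and 0 counts in cr*keap1a/b* pools and 550, 232 and 0 counts in WT pools. The letter a pools of cr*keap1a/b* were lower than those of WT, at 12.5 and 6.36 CPM against 57.6 and 28.4 CPM, and the letter b pools of both groups had none. The log2 fold change was -0.999 ± 3.85 (adjusted p = 0.9996), an error too large to give a direction. It was -4.95 without WT replicate 3, and positive when cr*keap1a/b* replicate 3, WT replicate 1 or WT replicate 2 was left out (1.61, 0.26 and 0.24). The medians of all tested genes in the fits with a positive value were 1.61, 0.70 and 0.77, so *tfr1b* was not above them.

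Ratios between 2 of these genes within a library do not depend on scaling, and were computed after the values were seen, without a test. For each count of *hamp* there were 6.07, 3.37 and 3.66 counts of *fth1a* in cr*keap1a/b* pools and 0.179, 0.186 and 0.184 in WT pools. The WT pools were close to each other on this ratio in spite of the gap between letters, and the groups differed by 4.53 on the log2 scale. For each count of *tfa* there were 0.112, 0.105 and 0.118 counts of *hamp* in cr*keap1a/b* pools and 0.322, 0.287 and 0.167 in WT pools, again without overlap. *hamp* per count of *cp* was likewise lower, at 0.955, 0.875 and 0.576 in cr*keap1a/b* pools and 1.88, 1.78 and 1.27 in WT pools. The ratio of *tfa* to *cp*, both plasma carriers, overlapped, with 8.51, 8.33 and 4.89 in cr*keap1a/b* pools and 5.83, 6.19 and 7.61 in WT pools. *hamp* was thus lower relative to both other secreted proteins, and *fth1a* was higher relative to *tfa* (0.681, 0.353 and 0.432 in cr*keap1a/b* pools and 0.0577, 0.0533 and 0.0307 in WT pools).

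**Figure D3:**
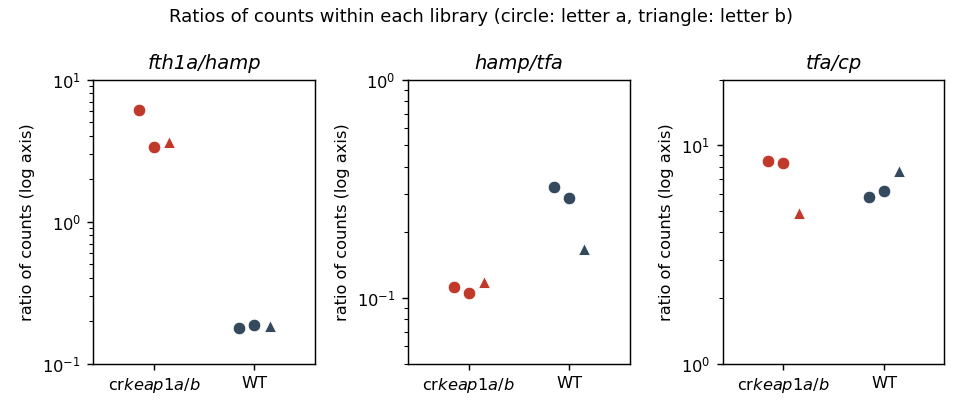
Ratios of the counts of a pair of genes within each library (vertical axes, log scale) in cr*keap1a/b* pools (left, red) and WT pools (right, blue). Circles are letter a pools and triangles letter b pools. *fth1a* over *hamp* was 3.37 to 6.07 in cr*keap1a/b* pools and 0.179 to 0.186 in WT pools, *hamp* over *tfa* did not overlap either, and *tfa* over *cp* did.

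Genes for iron uptake and intracellular iron transport had high fitted values without a call in limma-voom or edgeR. Of 28 listed genes, 8 were tested and 7 had a positive log2 fold change, with a median of 4.34. DESeq2 called 1 of the 8, where it called 2.42% of all 6152 genes it tested. Of the 8, 2 had an unadjusted limma-voom p under 0.05, against 486 of all 6386 tested genes. In WT replicate 3, 7 of these 8 genes had no counts, against 2 of 8 in cr*keap1a/b* replicate 3, and these zeros enter the fitted values. *slc11a2* encodes DMT1, which carries ferrous iron across membranes. It had 249, 221 and 270 CPM in cr*keap1a/b* pools and 83.5, 104 and 0 CPM in WT pools. All cr*keap1a/b* pools were higher. Over all pools, the 0 of WT replicate 3 included, its log2 fold change was 6.30 ± 2.36 (adjusted p = 0.278), and in the letter a pools it was 1.36 with an adjusted p of 0.0122. *cybrd1* encodes a ferric reductase that prepares iron for DMT1. It had 106, 28 and 550 counts in cr*keap1a/b* pools and none in WT pools. With each WT library set to a floor of 3 counts, the mean CPM of cr*keap1a/b* pools was 56.5 times the mean floor. This is not a lower bound, since 53.2% of genes had no counts in WT replicate 3. Most of the cr*keap1a/b* mean came from replicate 3 (9.52, 2.23 and 36.6 CPM by pool). The adjusted p was 0.335 in limma-voom and 0.0248 in DESeq2. *steap4*, another metalloreductase, overlapped, with 55.4, 78.7 and 67.6 CPM in cr*keap1a/b* pools and 52.6, 115 and 0 CPM in WT pools. *tfr2*, the second transferrin receptor and a sensor upstream of hepcidin in mammals, was chosen after its values were seen and had 65, 63 and 65 counts against 80, 0 and 0.

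Iron regulatory proteins bind hairpins in the messenger RNAs of ferritin, ferroportin and transferrin receptor when iron is low, and the ubiquitin ligase receptor *fbxl5* removes one of them when iron is high. All 4 listed genes were tested and none was called by limma-voom, edgeR or DESeq2. Of the 4, 1 had an unadjusted limma-voom p under 0.05, against 486 of all 6386 tested genes. *fbxl5* was lower in all cr*keap1a/b* pools, with 4.13, 13.4 and 0 CPM against 24.3, 38.7 and 19.4 CPM in WT pools (log2 fold change -4.31 ± 2.99, adjusted p = 0.771). *skp1*, the adaptor shared by many such ligases, was higher in all cr*keap1a/b* pools, with 232, 233 and 190 CPM against 94.4, 98.6 and 0 CPM. Its adjusted p was 0.306 over all pools and 0.0196 in the letter a pools. *aco1*, iron regulatory protein 1, had 65.9, 9.47 and 37.4 CPM in cr*keap1a/b* pools and 7.54, 46.8 and 3.79 CPM in WT pools, and *ireb2*, iron regulatory protein 2 and chosen after its values were seen, had 10.2, 14.9 and 2.60 CPM against 36.3, 20.8 and 7.64 CPM. Both overlapped.

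**Figure D4:**
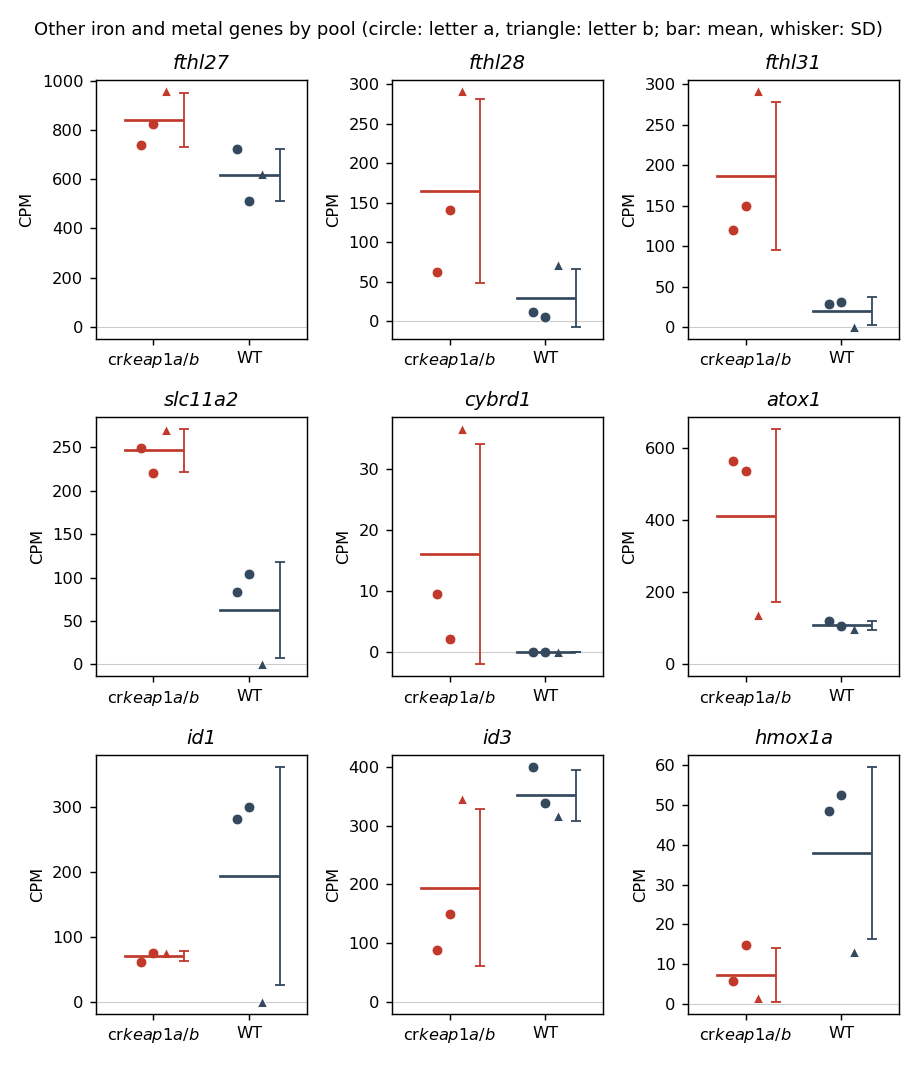
Expression of 9 further iron and metal genes in CPM (vertical axes, one scale per gene) in cr*keap1a/b* pools (left, red) and WT pools (right, blue), 3 pools each. Circles are letter a pools, triangles letter b pools, bars means and whiskers 1 SD, and a whisker that passes below 0 marks a spread larger than the mean. *fthl27*, *fthl31*, *slc11a2*, *cybrd1* and *atox1* have every red point above every blue one, and *id1* is split by letter in WT, at 282 and 299 CPM in letter a and 0 in letter b.

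For heme and free hemoglobin, 9 of 16 listed genes were tested and none was called by limma-voom, edgeR or DESeq2. Of the 9, 1 had an unadjusted limma-voom p under 0.05, against 486 of all 6386 tested genes. The median log2 fold change of the list was 0.0058. *ambp*, the precursor of the heme-binding plasma protein alpha-1-microglobulin and of bikunin, had 1639, 1693 and 2015 CPM in cr*keap1a/b* pools and 1271, 1190 and 893 CPM in WT pools. All cr*keap1a/b* pools were higher (log2 fold change 0.77 ± 0.23, adjusted p = 0.0899). *ambp* is also one of the 19 hepatocyte markers, whose summed level overlapped between groups. *hpxb*, a hemopexin gene that binds plasma heme, was chosen after its values were seen and gave nearly the same means, 297 ± 73.8 CPM in cr*keap1a/b* pools and 298 ± 48.2 CPM in WT pools (SD, n = 3 each), with a 95% interval of the log2 fold change from -0.99 to 0.89. *hmox1a* encodes heme oxygenase 1, which frees iron from heme and is an Nrf2 target in mammals, and it too was chosen after its values were seen. It had 64, 185 and 20 counts in cr*keap1a/b* pools and 463, 428 and 223 counts in WT pools, or 5.75, 14.7 and 1.33 CPM against 48.5, 52.4 and 13.0 CPM. Within each letter the cr*keap1a/b* pools were the lower ones, but the CPM ranges of the groups overlapped across letters and the test did not pass (log2 fold change -2.42 ± 2.56, adjusted p = 0.949). *blvrb*, a biliverdin reductase that acts after heme oxygenase, had 52.8, 31.4 and 150 CPM in cr*keap1a/b* pools and 28.4, 95.1 and 0 CPM in WT pools, and *pgrmc1*, a heme-binding membrane protein, had 200, 160 and 279 CPM against 101, 118 and 98.6 CPM. Only the second of these did not overlap (adjusted p = 0.741).

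Of 32 listed genes for building iron-sulfur clusters, 18 were tested and none was called by limma-voom, edgeR or DESeq2. None of the 18 had an unadjusted limma-voom p under 0.05, against 486 of all 6386 tested genes. Of the 18, 13 had positive values and 5 negative ones, and the median log2 fold change was 0.74. *iscua*, the scaffold on which clusters are built and chosen after its values were seen, had 118, 128 and 59.4 CPM in cr*keap1a/b* pools and 39.2, 18.9 and 23.8 CPM in WT pools. It was higher in every cr*keap1a/b* pool, with an adjusted p of 0.755 over all pools and 0.00731 in the letter a pools. *isca1*, a mitochondrial cluster assembly factor, was lower in every cr*keap1a/b* pool, at 45.8, 40.8 and 1.13 CPM against 51.5, 88.8 and 82.1 CPM (adjusted p = 0.741). *nfu1*, a cluster carrier, had 171, 176 and 527 counts against 97, 9 and 0, and *glrx5*, a mitochondrial glutaredoxin in the same route, overlapped with 600, 286 and 1124 counts against 206, 452 and 0.

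Zinc and copper genes had a median log2 fold change of 0.64 over 16 tested of 33 listed, with 10 positive and 6 negative. None was called by limma-voom, edgeR or DESeq2, and 2 had an unadjusted limma-voom p under 0.05, against 486 of all 6386 tested genes. *atox1*, the chaperone that hands copper to the pumps that load ceruloplasmin, had 564, 537 and 136 CPM in cr*keap1a/b* pools and 121, 106 and 97.3 CPM in WT pools. The groups did not overlap, although the cr*keap1a/b* letter b pool was close to WT. Its log2 fold change was 1.62 ± 0.65 (adjusted p = 0.352), and 2.29 in the letter a pools (adjusted p = 9.29e-09). *atp7a*, a copper pump, had 74, 141 and 1767 counts in cr*keap1a/b* pools and 78, 0 and 0 counts in WT pools, most of them in cr*keap1a/b* replicate 3, with a fitted value of 6.57 ± 2.81 (adjusted p = 0.452).

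Acute phase proteins were included because hepcidin, ceruloplasmin and ferritin are themselves induced in inflammation. Of 31 listed genes, 23 were tested, 2 rose and 1 fell, with a median of 0.11, where 0.595% of all tested genes were called in each direction. Of the 23, 10 had an unadjusted limma-voom p under 0.05, against 486 of all 6386 tested genes. edgeR called none of the 23 and DESeq2 called 2, where they called 0.345% and 2.42% of all genes they tested. *fetub*, a plasma protease inhibitor of the fetuin family whose mammalian homologue falls in inflammation, had 9512, 5704 and 3712 CPM in cr*keap1a/b* pools and 18788, 19654 and 13403 CPM in WT pools. It fell in all cr*keap1a/b* pools (log2 fold change -1.46 ± 0.13, adjusted p = 1.97e-14), and edgeR gave an adjusted p of 0.0562. *lect2.1*, a secreted chemokine-like hepatocyte protein, had 879, 2438 and 1044 CPM against 187, 285 and 528 CPM and rose (log2 fold change 1.96 ± 0.42, adjusted p = 0.00222), with an edgeR adjusted p of 0.0584. *crp2*, a C-reactive protein gene, had 9783, 9428 and 5520 CPM against 6083, 4707 and 3194 CPM. It was called by limma-voom (0.91 ± 0.14, adjusted p = 7.35e-06), yet the groups overlapped, and neither edgeR (adjusted p = 0.712) nor DESeq2 (adjusted p = 0.353) called it. *ahsg2*, another fetuin gene and chosen after its values were seen, had 160, 419 and 0 counts in cr*keap1a/b* pools and 3106, 2657 and 4489 counts in WT pools (adjusted p = 0.290, and 5.29e-10 in the letter a pools).

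Over all pathway lists, which leave out the 6 measured genes, 97 of 187 genes were tested, with 2 called higher and 1 lower by limma-voom, none by edgeR and 3 by DESeq2, and 19 at an unadjusted limma-voom p under 0.05. Over all 6386 tested genes 1.19% were called by limma-voom and 0.345% by edgeR, and 486 had an unadjusted limma-voom p under 0.05. DESeq2 called 2.42% of the 6152 genes it tested. Groups did not overlap for 14 higher and 6 lower of the 97 genes, beside 8.39% higher and 5% lower over all tested genes, and the median log2 fold change was 0.70, against 0.36 over all tested genes. In the letter a pools alone, where 4.46% of 6456 genes were called (2.31% higher and 2.15% lower), 14 pathway genes and *fth1a* and *hamp* passed. The 9 higher ones were *lect2.1*, *atox1*, *crp2*, *crp4*, *fthl31*, *iscua*, *fkbp1aa*, *slc11a2* and *skp1*, and the 5 lower ones were *fetub*, *ahsg2*, *id1*, *id3* and *itih3b.2*. With 2 pools per group that fit borrows its error wholly from the other genes, so its p-values say little of the spread of a single gene.

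**Figure D5:**
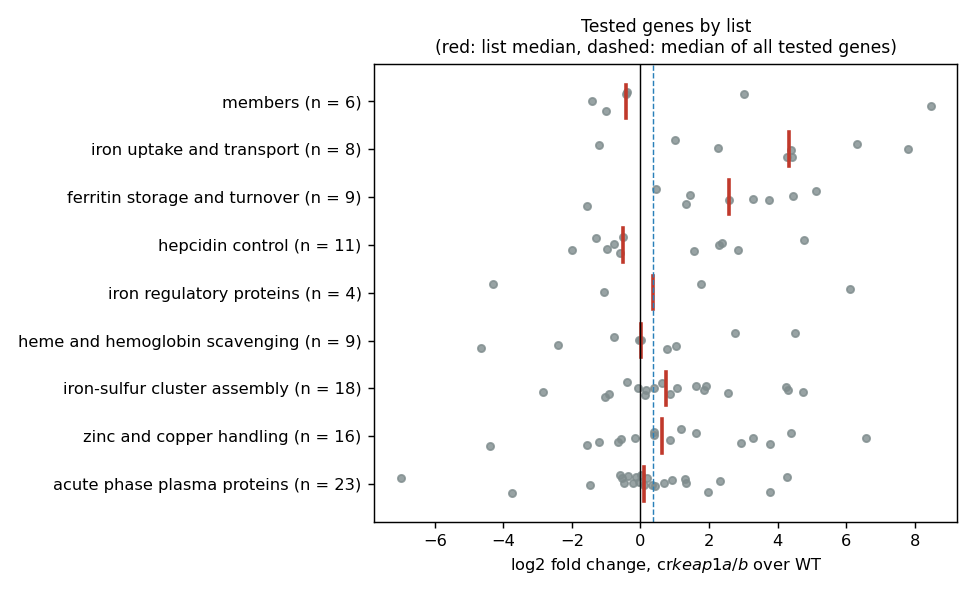
Log2 fold changes (horizontal axis, cr*keap1a/b* over WT) of the tested genes of each list, one point per gene, with the vertical position within a row arbitrary and the 6 measured genes in the top row. Red ticks are list medians and the dashed line is the median of all tested genes. The uptake and transport list has the highest median, 4.34 over 8 genes, and the hepcidin control list the lowest of the pathway lists, -0.52 over 11 genes.

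The genes whose pattern over the 6 pools was most like those of *fth1a* and *hamp* were found among 1934 tested genes with counts in every pool, by Pearson's r of log2 CPM. These correlations mix the group difference with the difference between letters, whose pools differed in the share of genes without counts. They are given as a description. For *fth1a* they were *atp5f1b*, a subunit of the mitochondrial ATP synthase (r = 0.996), *gstp1.2*, a glutathione S-transferase (r = 0.993), and *dhdh.1*, a dihydrodiol dehydrogenase gene (r = 0.989). *gstp1.2* had 14166, 11249 and 6814 CPM in cr*keap1a/b* pools and 380, 248 and 94.1 CPM in WT pools, and *dhdh.1* had 2499, 1847 and 1774 CPM against 195, 162 and 74.0 CPM. Both rose (log2 fold changes 5.74 ± 0.67 and 4.07 ± 0.50, adjusted p = 1.31e-09 and 1.05e-08). *atp5f1b* differed far less, with 2135 ± 143 CPM in cr*keap1a/b* pools and 1433 ± 118 CPM in WT pools (SD, n = 3 each, adjusted p = 0.187).

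For *hamp* they were *sycn.2* (r = 0.976) and *prss59.1* (r = 0.973), which encode syncollin and a trypsin of exocrine pancreas, and *a2m2f*, an alpha-2-macroglobulin-like gene (r = 0.957). *sycn.2* had 124, 140 and 74.1 CPM in cr*keap1a/b* pools and 1042, 577 and 300 CPM in WT pools, and *prss59.1* had 1081, 1063 and 665 CPM against 3702, 2633 and 1569 CPM. Both fell (adjusted p = 0.0306 and 0.000896). Of the 16 exocrine pancreas markers in the table, 9 were called lower and none higher, and *cpa1* was at 0 in cr*keap1a/b* replicates 1 and 3 and in WT replicate 3. Summed intestine, biliary and stellate, and muscle markers were lower as well, but no marker of these lists was called. Most of the biliary and stellate sum was *anxa4*, with means of 836 CPM in cr*keap1a/b* pools and 1311 CPM in WT pools. In cr*keap1a/b* replicate 3, 7 of the 9 biliary and stellate markers were at 0. *apoa4b.1*, whose groups overlapped, had means of 501 CPM and 1111 CPM within the intestine sum. The part of pancreas and these other markers in the difference in *hamp* was not tested. In pooled livers fewer cells of a type cannot be told apart from less RNA per cell.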

How the data were processed

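RNA of pooled livers was measured in 3 cr*keap1a/b* and 3 WT samples. The library kit was QuantSeq 3′, which yields reads near the 3′ end of polyadenylated transcripts, and sequenced with single-end reads. The submitters' processing notes name FastQC 0.72, cutadapt 1.16, STAR 2.7.5b, featureCounts 1.6.3, limma 3.40.6 and the genome build danRer11. The values the authors deposited are raw counts per gene, whole numbers that are not normalised. No molecular identifiers are mentioned, so floors cover counting error only. A 95% confidence level was used for intervals, and the floor for a count of 0 was 3 counts, or 0.175 to 0.367 CPM per library.

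Of 6637 rows, 6502 had a gene ID and 6426 of these matched a symbol in RefSeq's gene table for another assembly, used for names only. The 135 rows without an ID held 9.82% to 13.6% of the counts of a library and were left out of totals and tests. Counts were filtered with filterByExpr, scaled by TMM (trimmed mean of M values) and passed through voom to a linear model of group alone in limma 3.58.1 with edgeR 4.0.16 and R 4.3.3, the method named in the study, followed by eBayes and Benjamini-Hochberg adjustment over 6386 genes. Genes with an adjusted p under 0.05 were called. edgeR's quasi-likelihood test and DESeq2 1.42.0 were alternatives. The script was tested on simulated data.

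The genes and lists were chosen with earlier results of these data known. The genes named were all those measured of the 10, every pathway gene called, the 3 with the smallest p of each list, *keap1a* and *keap1b*, and for each called gene the 3 genes with the highest Pearson r. Others are marked as chosen after their values were seen. The share of *fth1a* among *fth1a* and *fth1b* was planned but not computed, since *fth1b* was not analysed here. Deviations of pools with the same title number correlated at 0.043, 0.0099 and 0.074, and with the same description code at 0.045, 0.045 and 0.074. Pairs that shared neither, each of a letter a and a letter b pool, lay between -0.069 and -0.036. The main fit did not treat pools as paired, but small correlations do not show that they were unpaired. Fits with a replicate block are given below. No sequences are shown.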

Additional observations from a re-analysis of the deposited data

Results flagged for a closer look

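In 4 of the genes named by rule the letter a pools of the groups did not overlap and the letter b pools differed the other way, on the log2 CPM scale, cr*keap1a/b* over WT. The difference was -0.83 in letter a and 0.0069 in letter b for *cp*, -0.38 and 3.27 for *pcbp2*, -2.09 and 8.84 for *id1*, and -1.67 and 0.12 for *id3*. With 1 letter b pool per group the difference between letters was not tested. Both letter b libraries had far more genes without counts than the others, and *id1* had none in the WT letter b pool. The part of these zeros was not tested. For *cp* the letter b pools were nearly equal. Groups of 3 pools are too small for a search for single outlying pools.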

How the results depend on the processing

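Of the 20 planned and 4 added alternatives, the added ones (rows without a gene ID kept, scaling to hepatocyte markers, robust moderation and no moderation) were chosen after seeing the data. Against 76 genes called in limma-voom, edgeR gave 22, DESeq2 149, limma with a trend 49, RLE factors 36, at least 10 counts in all pools 36, the letter as covariate 17, the number as covariate 32, letter a pools only 288, no moderation 4 and an adjusted p under 0.1 118. Of the 6 measured iron and metal-binding genes, 2 were called, and 1 under edgeR, the trend, RLE factors, library size only, no filter, at least 10 counts in all pools, the letter or number as covariate, rows without an ID kept and hepatocyte scaling. None was called without moderation, where 2 had an unadjusted p under 0.05. Of the pathway genes 3 were called, against 0 by edgeR (9 at an unadjusted p under 0.05), 1 at 10 counts in all pools, 14 in letter a pools, 5 with hepatocyte scaling, 1 with robust moderation and 0 without moderation (7 unadjusted). The replicate block by title number gave 3 calls over all genes, 0 of the 6 measured genes (4 unadjusted) and 0 pathway genes (13 unadjusted). The replicate block by description code gave 5, 0 (3 unadjusted) and 0 (14 unadjusted). Under these blocks *hamp* had an adjusted p of 0.196 and 0.178 and *fth1a* one of 0.104 and 0.0737. Leaving out 1 pool at a time gave 1 to 162 calls over all genes, with 1 without cr*keap1a/b* replicate 2 or WT replicate 1, 4 without WT replicate 2, 31 without cr*keap1a/b* replicate 1 and 162 without cr*keap1a/b* replicate 3. It gave 0 to 3 of the 6 measured genes and 0 to 9 pathway genes. *fth1a* kept its direction in 23 alternatives (2.49 to 3.44) and was called in 17, *hamp* in 23 (-2.03 to -1.10) and was called in 6, and *slc40a1* in 22 (7.03 to 9.96) and was called in 2. *tfr1b* lay between -4.95 (without WT replicate 3) and 1.61. It turned positive without cr*keap1a/b* replicate 3 (1.61), WT replicate 1 (0.26) or WT replicate 2 (0.24), where the medians of all genes were 1.61, 0.70 and 0.77. The filter of 10 counts in all pools gave no value for *slc40a1* and *tfr1b*. The causes were not tested. Scaling moved the median of all genes from 0.36 to 0.57 with library size only and to 0.81 with hepatocyte markers, and *fth1a*, *slc40a1* and *hamp* kept their directions.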
